A study of Mus musculus with 2 samples.

Results

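Retinoic acid and the genes that carry spermatogonia out of the stem cell pool were described here through 10 genes, Kit, Stra8, Sohlh1, Sohlh2, Dmrt1, Rhox13, Upp1, Crabp1, Ccnd2 and Lin28a. They were chosen by symbol, and all 10 were among the 39232 genes with counts in mouse testis. Droplet single-cell RNA libraries had been made from C57 BL/6 males in a study of 20 mice bought at 5 weeks of age and given 1 week to adapt, of which 10 then ate, for 12 weeks, chow that drew 60% of its calories from fat, and 10 a normal diet. There was 1 high-fat library and 1 library for which the label leaves the diet out (here the unlabelled-diet library), each labelled as germ cells of testis tissue, and the labels do not say how many mice a library pools. With 1 library per group no test was possible, so "higher" and "lower" compare these 2 libraries and not the diets.

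Retinoic acid is made from vitamin A by retinol and retinaldehyde dehydrogenases in Sertoli cells and in germ cells, is broken down by Cyp26 enzymes, and acts through nuclear receptors of the Rar and Rxr families. In the mouse testis it drives undifferentiated spermatogonia to become Kit-positive differentiating cells, and later it takes part in the entry into meiosis, where Stra8 is its best known target. Sohlh1 and Sohlh2 are helix-loop-helix transcription factors of early differentiation, Dmrt1 is a transcription factor that in mouse spermatogonia holds back meiosis, Rhox13 is an X-linked homeobox gene, Crabp1 binds retinoic acid in the cytoplasm, Ccnd2 is a D-type cyclin, Upp1 is a uridine phosphorylase and Lin28a is an RNA-binding protein that blocks maturation of let-7 microRNAs.

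RefSeq promoters, 250 bases before to 50 bases after the gene start in GRCm38.p6, were found for 8 of the 10 genes, while those of Dmrt1 and Ccnd2 were not in the table. They were searched on both strands for AGGTCA, the core letters that retinoic acid receptors bind, for the E-box CACGTG, the kind of site that helix-loop-helix factors bind, and for ACAATGT, the core bound by DM-domain factors such as Dmrt1. Matches were found in Stra8 and Sohlh1 only, so these 2 promoters are shown, 5′ to 3′ on the strand of the gene, with every match in capitals. Stra8 lies at chr6:34920698-34920997 on the + strand, and Sohlh1 at chr2:25847199-25847498 on the - strand.
Stra8: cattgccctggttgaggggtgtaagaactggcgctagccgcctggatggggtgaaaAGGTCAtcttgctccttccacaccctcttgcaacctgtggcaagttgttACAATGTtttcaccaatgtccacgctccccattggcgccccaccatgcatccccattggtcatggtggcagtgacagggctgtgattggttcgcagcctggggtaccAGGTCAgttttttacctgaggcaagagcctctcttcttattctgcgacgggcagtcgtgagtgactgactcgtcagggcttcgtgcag
Sohlh1: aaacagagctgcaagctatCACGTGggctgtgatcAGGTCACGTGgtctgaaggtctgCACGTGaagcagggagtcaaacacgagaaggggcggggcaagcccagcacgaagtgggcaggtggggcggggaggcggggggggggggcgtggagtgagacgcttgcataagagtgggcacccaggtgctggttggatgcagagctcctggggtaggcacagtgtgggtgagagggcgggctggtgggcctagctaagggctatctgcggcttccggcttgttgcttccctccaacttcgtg

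In Stra8, AGGTCA began at -194 and -38 from the gene start and ACAATGT at -145. In Sohlh1, CACGTG began at -231, -211 and -192, and AGGTCA at -215, where it overlaps the E-box at -211. Among 27025 promoters of the same length, 16% held AGGTCA, 7.24% held CACGTG and 2.98% held ACAATGT. These matches describe letters and say nothing about binding in these cells.

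The high-fat library held 201842085 UMIs (unique molecular identifiers, each counted as 1 RNA molecule) in 12661 cells and the unlabelled-diet library 207667609 in 13805, with medians of 9772 and 13024 UMIs per cell. Cells were clustered together on genes that exclude the 10 members and the other genes of their pathways, so none of these genes shaped the classes. Although the label speaks of germ cells, clusters of Sertoli, Leydig and interstitial stromal cells were present too, and classes named here are "like" that cell by its transcripts. Late spermatocytes and round spermatids fell into different clusters in the 2 libraries: clusters 0, 10 and 15 and clusters 7 and 14 held most of these cells in the high-fat library, and clusters 3, 5, 12 and 13 and clusters 1, 8 and 11 in the unlabelled-diet library. Cluster 10, led by Ssxb2, Ssxb3 and Ssxb1, was named late spermatocytes on close scores (0.44 against 0.36 for round spermatids). Cluster 1, with Ssxb2 among its leading genes, was named round spermatids. Ratios between the libraries in these 2 classes may therefore set unlike stages side by side, which was not tested. Both libraries number their cells in the same way, and 1507 cell names occurred in both, which are labels and not barcode sequences.

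Spermatogonia formed cluster 6, with 877 cells in the high-fat library and 719 in the unlabelled-diet library, 7.19% and 5.41% of the kept cells. The difference was 1.78 percentage points, with a Newcombe 95% interval of 1.18 to 2.38 that covers counting error only. Cells were also picked by marker counts in place of clusters. These were kept cells with at least 3 UMIs over 11 undifferentiated and 7 differentiating markers, and no UMI of the somatic markers. They gave -0.216 points (-0.966 to 0.535), so the direction depends on how the cells are chosen. This choice depends on depth and is not limited to spermatogonia. The 7 markers summed to 1369 and 1454 CPM in early spermatocytes, against 690 and 701 CPM in spermatogonia. The cluster was named from Uchl1, the 10th gene by fold, and was shallow, with median depths of 2283 and 2308 UMIs, so its name rests on little RNA per cell. Summed over 11 markers of undifferentiated spermatogonia, its level was 1021 CPM in the high-fat library and 950 CPM in the unlabelled-diet library, beside 98.3 and 87.6 CPM in the whole libraries. Clustered once more, it gave 3 sub-clusters. Sub-cluster 2 (104 and 86 cells) had Nanos3 and Sall4 among its leading genes and is called undifferentiated. The 11 undifferentiated markers summed there to 2074.5 CPM in the high-fat library and 1875.5 CPM in the unlabelled-diet library, against 878 and 824 CPM in sub-cluster 0. Yet 7 markers of differentiating spermatogonia summed to 868 and 550 CPM there, against 657 and 735 CPM in sub-cluster 0 and 639 and 690 CPM in sub-cluster 1. The name therefore does not mean that differentiating transcripts were absent. Sub-cluster 0 (343 and 422 cells) has no name. Sub-cluster 1 (430 and 211 cells, 49.0% and 29.3% of spermatogonia) was led by Ly6k, Prm2 and other spermatid transcripts and also has no name: its protamine and transition protein transcripts stood at 61.8% and 61.0% of the level in the whole library, against 31.1% and 28.0% in sub-cluster 0 and 25.4% and 17.3% in sub-cluster 2. These are spermatid RNAs that spermatogonia lack, so the percentages give an upper level for free RNA in the droplets, and its part in the levels below was tested only by subtraction. Summed over 8 markers, all detected, elongating spermatid RNA stood at 3450 CPM in spermatogonia of the high-fat library and 1715 CPM in those of the unlabelled-diet library.

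Levels are counts per 1000000 UMIs (CPM) summed over the cells of a class, each with an exact Poisson 95% interval for counting error, and CPM was compared within a gene only. The members were concentrated in spermatogonia to different degrees. Summed over the members, the level was 1529 CPM in spermatogonia of the high-fat library and 1803 CPM in those of the unlabelled-diet library, and 10.3 and 9.29 CPM in round spermatids. These sums serve to set the 2 classes side by side within a library and do not compare the libraries. Lin28a, with 1234 and 2139 UMIs in spermatogonia, weighs most in them, whereas the median log2 ratio of the members was 0.29. Spermatogonia, a small share of all cells, gave 85.6% of the Upp1 UMIs of the high-fat library and 70.0% of those of the unlabelled-diet library. The shares were 73.5% and 83.9% for Lin28a, 78.8% and 78.6% for Sohlh1, 83.0% and 63.6% for Crabp1, 65.7% and 71.7% for Stra8 and 59.9% and 64.0% for Dmrt1. They were lower for Ccnd2, at 50.8% and 46.1%, Rhox13, at 40.0% and 49.2%, Kit, at 41.8% and 36.9%, and Sohlh2, at 44.2% and 32.9%.

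**Figure D1:**
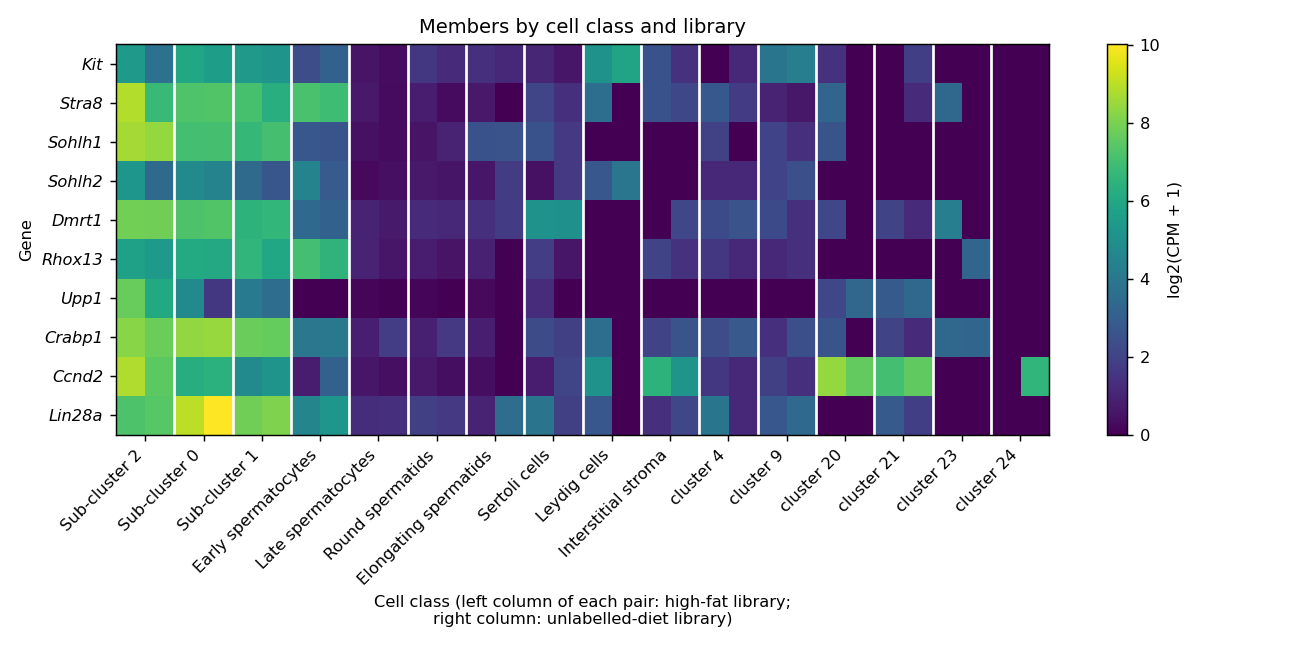
Each row is a gene and each pair of columns a cell class, the high-fat library on the left and the unlabelled-diet library on the right, with colour as log2(CPM + 1) on 1 scale. Colours are to be compared along a row: with both libraries summed, 9 of the 10 members are highest in a spermatogonial sub-cluster, and Rhox13 in early spermatocytes. In the unlabelled-diet library alone, Ccnd2 is highest in cluster 20 and Kit in Leydig cells, on 4 counts.

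Within the spermatogonial lineage the members peaked at different places. With both libraries summed, Stra8 was highest in undifferentiated sub-cluster 2 at 320 CPM (286 to 357), and was next in sub-cluster 0 at 156 CPM (144 to 169), early spermatocytes at 134 CPM (119 to 150) and sub-cluster 1 at 119 CPM (101 to 140), levels whose intervals overlap their neighbours. That first place came from the high-fat library, at 465 CPM in sub-cluster 2 and 153 CPM in sub-cluster 0, and 1 cell held 122 of its 274 Stra8 UMIs in sub-cluster 2. In the unlabelled-diet library sub-cluster 2 stood at 107 CPM (77.5 to 144), below 159 CPM in sub-cluster 0. Without cells of 10000 UMIs or more, a setting chosen after the data were seen, the order turned in the high-fat library too, at 89.0 CPM in sub-cluster 2 and 114 CPM in sub-cluster 0. The Sohlh1 level was 381 CPM (344 to 422) in sub-cluster 2, 131 CPM in sub-cluster 0, 111 CPM in sub-cluster 1 and 5.41 CPM in early spermatocytes, a class where Stra8 was still at a level close to that of sub-cluster 0. The Dmrt1 level ran in the same order, at 232, 152, 90.6 and 9.02 CPM. Upp1 stood at 149 CPM (126 to 175) in sub-cluster 2, against 15.1 CPM in sub-cluster 1 and 14.0 CPM in sub-cluster 0, and had 0 counts in early spermatocytes of both libraries, which allows up to 2.11 CPM in the high-fat library and 3.78 CPM in the unlabelled-diet library.

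Lin28a and Crabp1 instead peaked in sub-cluster 0 with both libraries summed. Lin28a had 787 CPM (759 to 816) there, 240 CPM in sub-cluster 1, 157 CPM in sub-cluster 2 and 28.0 CPM in early spermatocytes, each apart from the next. Crabp1 had 343 CPM (325 to 363) in sub-cluster 0, 267 CPM in sub-cluster 2, 209 CPM in sub-cluster 1 and 14.9 CPM in early spermatocytes. Kit, the receptor of stem cell factor, was also highest in sub-cluster 0 at 54.8 CPM (47.5 to 62.9), but its interval overlapped that of sub-cluster 1 at 38.9 CPM (28.8 to 51.5).

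Rhox13 was the only member with its highest level in early spermatocytes, at 115 CPM (102 to 131), with an interval that overlaps that of sub-cluster 1 at 85.8 CPM (70.4 to 104). It was lowest of these 4 classes in sub-cluster 2, at 48.4 CPM (35.7 to 64.2). Sohlh2 rested on 80 and 46 counts in spermatogonia and stood at 26.2 CPM (17.1 to 38.4) in sub-cluster 2, 24.0 CPM (19.3 to 29.6) in sub-cluster 0 and 15.8 CPM (10.998 to 22.0) in early spermatocytes, intervals that overlap. In the unlabelled-diet library Sohlh2 had 9.96 CPM in sub-cluster 2, on 4 counts, and 21.1 CPM in sub-cluster 0. Ccnd2 had 347 CPM (311 to 386) in sub-cluster 2 with both libraries summed, an interval that overlaps that of unnamed cluster 20. It was first in the high-fat library, at 460 CPM, but stood at 182 CPM in the unlabelled-diet library, below 196 CPM in cluster 20 and 189 CPM in cluster 21, with intervals that overlap.

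Outside the germ line Ccnd2 and Dmrt1 had a level of their own, while Kit and Upp1 rested on few counts there. Ccnd2 reached 304 CPM (267 to 344) in unnamed cluster 20, which was led by Ifng, Trbc1 and Cd69, and 171 CPM (147 to 198) in unnamed cluster 21, which was led by Ptn and Rgs5, and had 62.5 CPM (49.2 to 78.2) in interstitial stroma. In stroma it stood at 87.1 CPM in the high-fat library and 35.9 CPM in the unlabelled-diet library, a ratio of 2.42 (1.44 to 4.22). In cluster 20 it stood at 345 and 196 CPM, a ratio of 1.77 (1.27 to 2.51), and in cluster 21 at 131 and 189 CPM, a ratio of 0.692 (0.48 to 0.98). Dmrt1, which Sertoli cells of the mouse are known to use, had 33.9 and 32.0 CPM in Sertoli cells, a ratio of 1.06 (0.76 to 1.49). Kit had 40.5 CPM in Leydig cells on 10 counts in all (19.4 to 74.6). Kit also had 15.6 CPM (12.4 to 19.5) in cluster 9, which has no name and whose marker scores were highest for round and elongating spermatids, classes of the germ line.

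**Figure D2:**
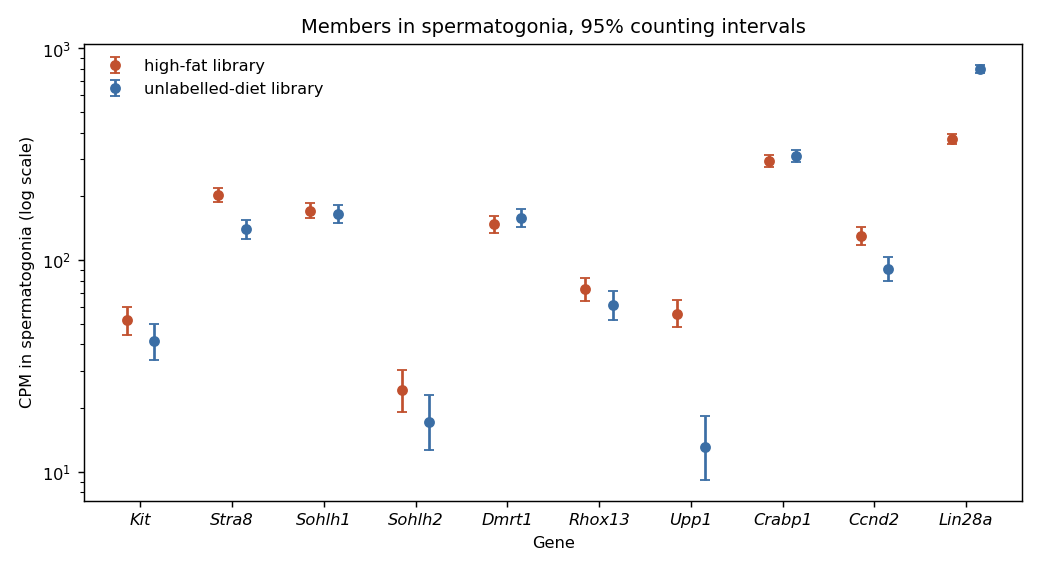
Level of each member in spermatogonia as CPM on a log axis, with the high-fat library left of the unlabelled-diet library and bars as exact Poisson 95% intervals. The Upp1 and Lin28a points are the most separate pairs, with Upp1 at 55.9 against 13.1 CPM and Lin28a at 375 against 803 CPM.

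Between the libraries, Upp1 was higher and Lin28a lower in spermatogonia of the high-fat library, Stra8 and Ccnd2 were higher by a smaller factor, and the ratios of the other 6 members had intervals that hold 1. Past 2-fold with an interval that leaves out 1 were 2 of the 10 members, Upp1 and Lin28a, beside 14.2% of 17855 genes with at least 10 counts. The median log2 ratio of the members was 0.29, and that of all those genes 0.03. All 10 members had at least 10 counts in spermatogonia, the minimum for a ratio. Annotated antisense genes overlap Ccnd2 and Lin28a, and in spermatogonia they held at most 17 UMIs.

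Upp1 had 184 UMIs in 57 cells of the high-fat library and 35 UMIs in 20 cells of the unlabelled-diet library, or 55.9 CPM (48.2 to 64.6) and 13.1 CPM (9.15 to 18.3). The ratio was 4.26 (2.95 to 6.30, exact conditional binomial). By share of cells with a UMI, this was 6.50% and 2.78% of spermatogonia, against 0.273% and 0.0436% of round spermatids, which at 19130 and 14797 median UMIs are far deeper. Thinned to 1000 UMIs per cell, the shares in spermatogonia were 1.94% and 0.556%. The ratio was 3.05 (2.00 to 4.82) in sub-cluster 2, at 205 and 67.2 CPM, and 12.6 (4.62 to 48.2) in sub-cluster 0, where the unlabelled-diet library had 4 counts. It was 1.53 (0.49 to 6.31) in sub-cluster 1, where the interval holds 1. Over 16 other settings, among them fewer cells, deeper cells and free RNA subtracted, the log2 ratio stayed between 1.68 and 2.98, with an interval above 0 in all 16.

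Lin28a had 1234 UMIs in the high-fat library and 2139 in the unlabelled-diet library, or 375 CPM (355 to 397) and 803 CPM (770 to 838), a ratio of 0.467 (0.435 to 0.501). UMIs were seen in 26.0% and 37.3% of spermatogonia and in 4.73% and 3.10% of round spermatids. After thinning, the shares were 12.8% and 22.7% in spermatogonia, against 0.228% and 0.153% in round spermatids. By sub-cluster, a difference beyond counting error was seen in sub-cluster 0, with 522 CPM (490 to 557) in the high-fat library and 1039 CPM (994 to 1086) in the unlabelled-diet library. The ratio there was 0.503 (0.465 to 0.544), while it was 0.834 (0.652 to 1.07) in sub-cluster 1 and 0.881 (0.635 to 1.23) in sub-cluster 2. Both of the latter intervals hold 1, and whether the sub-clusters differ was not tested. In sub-cluster 0, single cells held up to 118 Lin28a UMIs in the high-fat library and 142 in the unlabelled-diet library. The medians among cells with Lin28a were 1 and 2 there, and the intervals leave out such clumping. Without the richest cell of each library, the ratio in sub-cluster 0 was 0.481 (0.442 to 0.522). Weighting the sub-clusters of both libraries to 1 common mix gave a log2 ratio of -0.80 in place of -1.10, and over 16 settings the log2 ratio ran between -1.50 and -0.80, with an interval below 0 in all 16.

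Stra8 and Ccnd2 were higher in the high-fat library by summed counts, but not once the deepest cells were left out. Stra8 had 204 CPM (189 to 220) in the high-fat library and 140 CPM (126 to 155) in the unlabelled-diet library, a ratio of 1.46 (1.28 to 1.66). Ccnd2 had 130 CPM (118 to 143) and 91.3 CPM (80.1 to 103), a ratio of 1.43 (1.22 to 1.68). In each library 44 spermatogonia held 10000 UMIs or more, and they carried 28.3% of the spermatogonial UMIs of the high-fat library and 27.4% of those of the unlabelled-diet library. Without these cells, a setting chosen after the data were seen, Stra8 stood at 121 and 130 CPM, a ratio of 0.927 (0.780 to 1.10), and Ccnd2 at 66.6 and 72.4 CPM, a ratio of 0.919 (0.727 to 1.16). Shares of cells with a UMI also lay close together for Stra8, at 18.9% and 17.9%, beside 1.23% and 0.393% of round spermatids. For Ccnd2 they were 9.58% and 12.9%, beside 1.18% and 0.545%. The same step left Upp1 at 36.5 and 9.31 CPM, a ratio of 3.92 (2.34 to 6.92), and Lin28a at 357 and 1010 CPM, a ratio of 0.353 (0.325 to 0.383).

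For the remaining 6 members the interval of the ratio held 1. Sohlh1 had 171 CPM in the high-fat library and 165 CPM in the unlabelled-diet library, a ratio of 1.04 (0.92 to 1.18). Crabp1 had 295 and 311 CPM, a ratio of 0.947 (0.863 to 1.04), and Dmrt1 147 and 159 CPM, a ratio of 0.928 (0.813 to 1.06). Rhox13 had 73.0 and 61.2 CPM (ratio 1.19, 0.97 to 1.46), Kit 52.0 and 41.3 CPM (ratio 1.26, 0.985 to 1.61) and Sohlh2 24.3 and 17.3 CPM (ratio 1.41, 0.97 to 2.07). These intervals do not show that the levels were alike. Kit, Rhox13 and Sohlh2 were higher in the high-fat library in all 16 other settings, with an interval above 1 in 5 settings for Kit, 6 for Rhox13 and 5 for Sohlh2. Dmrt1 and Crabp1 depended on the choice of cells. Without the cells of 10000 UMIs or more, their ratios lay below 1 (Dmrt1 0.785, 0.668 to 0.924, and Crabp1 0.884, 0.793 to 0.986). With cells picked by marker counts, a set not limited to spermatogonia, they lay above it. The log2 ratios were 0.75 (0.35 to 1.15) for Dmrt1 and 0.42 (0.17 to 0.67) for Crabp1. Under that choice Kit had a log2 ratio of 1.69 (0.99 to 2.42), Sohlh1 of 1.06 (0.67 to 1.45) and Rhox13 of 0.80 (0.40 to 1.21), each with an interval above 0.

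**Figure D3:**
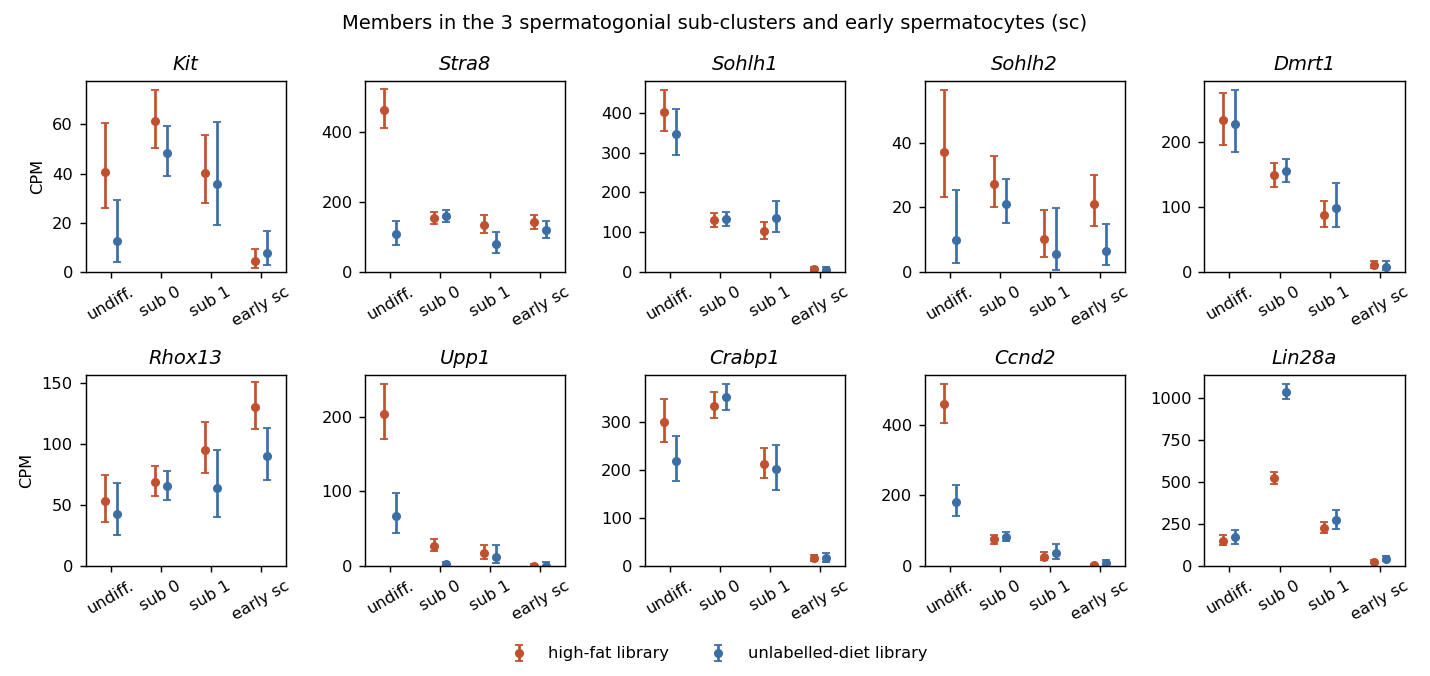
Level of each member in CPM in undifferentiated sub-cluster 2 (undiff.), sub-clusters 0 and 1 and early spermatocytes (early sc), with the high-fat library left of the unlabelled-diet library, bars as exact Poisson 95% intervals and an axis of its own for each gene. Lin28a is apart in sub-cluster 0, at 522 against 1039 CPM, and Stra8, Ccnd2 and Upp1 are apart in sub-cluster 2.

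In undifferentiated sub-cluster 2, Kit, Stra8, Sohlh2, Upp1 and Ccnd2 were past 2-fold higher in the high-fat library, 5 of 10 members beside 5.25% of 10509 genes, and the members' median log2 ratio was 0.90 beside 0.11 over those genes. A cell of 73302 UMIs, the deepest spermatogonium of the high-fat library, held 122 of the 274 Stra8 UMIs, 76 of the 271 Ccnd2 UMIs, 12 of the 24 Kit UMIs and 21 of the 121 Upp1 UMIs of sub-cluster 2. It was not among the doublets called by Scrublet. Stra8 stood in sub-cluster 2 at 465 and 107 CPM, a ratio of 4.34 (3.14 to 6.13). Leaving out the cell richest in Stra8 in each library gave 294 and 83.1 CPM, a ratio of 3.54 (2.42 to 5.33). The same step, taken for each gene, left Ccnd2 at 2.37 (1.77 to 3.21), Upp1 at 3.44 (2.15 to 5.73) and Sohlh2 at 3.67 (1.04 to 19.8), while the interval of Kit then held 1 (2.30, 0.698 to 9.80). Leaving out the 9 and 8 cells of sub-cluster 2 with 10000 UMIs or more gave 89.0 and 128 CPM, a ratio of 0.697 (0.422 to 1.15). Under that step Ccnd2 had 212 and 211 CPM, a ratio of 1.00 (0.707 to 1.43), Kit had 5 and 4 counts, and Sohlh2 had 10 and 3 counts. Of the 5, Upp1 was the one whose interval still lay above 1, at 167 and 51.0 CPM, a ratio of 3.28 (1.82 to 6.34). Crabp1 stood in sub-cluster 2 at 300.2 and 219 CPM, a ratio of 1.37 (1.06 to 1.79), and without these cells its ratio was 1.13 (0.839 to 1.53). In sub-cluster 2 without these cells, Dmrt1 stood at 152 and 241 CPM, a ratio of 0.631 (0.436 to 0.912). In sub-cluster 1 the Stra8 level was 135 and 79.7 CPM, a ratio of 1.70 (1.12 to 2.64). There it stayed at 1.82 (1.20 to 2.83) without the deep cells. Sub-cluster 0 went the other way: without its deep cells Stra8 stood at 114 and 145 CPM, a ratio of 0.785 (0.623 to 0.987).

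Early spermatocytes, with 420 and 216 cells, kept Stra8 at 142 CPM in the high-fat library and 119 CPM in the unlabelled-diet library (ratio 1.20, 0.933 to 1.55). Rhox13 stood there at 130 and 89.5 CPM, a ratio of 1.45 (1.10 to 1.94). Sohlh2 was past 2-fold, at 21.1 and 6.30 CPM on 30 and 5 counts, a ratio of 3.34 (1.28 to 11.04); it was 1 of the 8 members with at least 10 counts, beside 7.3% of 13026 genes that were past 2-fold higher. In Sertoli cells Lin28a had 37 counts in the high-fat library and 5 in the unlabelled-diet library, or 13.3 and 2.71 CPM, a ratio of 4.92 (1.93 to 16.1), but 62.2% of the counts of the high-fat library came from 1 cell. It was 1 of 5 members with at least 10 counts in Sertoli cells, beside 12.1% of 15401 genes.

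Genes seen in the same cell depended on depth. Of 57 spermatogonia with an Upp1 UMI in the high-fat library, 86.0% also held Sohlh1, against 23.7% of those without Upp1, and of 20 in the unlabelled-diet library 80.0% did, against 28.5%. Cells with Upp1 were deeper, with medians of 5839 and 6363.5 UMIs against 2189 and 2287 for cells without it. After thinning, 9 of 17 cells with Upp1 held Sohlh1 in the high-fat library (52.9% against 10.9%) and 1 of 4 in the unlabelled-diet library. In thinned cells, 0 of the 112 cells of the high-fat library with Lin28a and 0 of the 163 of the unlabelled-diet library held Upp1, which allows shares of up to 2.68% and 1.84%, where 2.2% and 0.7% of cells without Lin28a did. Both limits lie above the shares without Lin28a, so a difference was not detectable at this depth. Kit and Stra8 were found together in 31.7% and 31.0% of cells with Kit, against 16.9% and 16.1% of cells without, but in thinned cells the order turned, at 4.8% and 4.0% against 9.6% and 8.4%, on 2 and 1 cells.

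By likeness across classes, the genes nearest to each member were named by Pearson's r of log2(CPM + 1) over 30 points, 15 classes in each of 2 libraries, among 15537 genes with at least 500 counts. The points share libraries and free RNA, so r is a description. Rhox13 had the closest neighbours, Tex13b (0.976), Tex11 (0.959) and Scml2 (0.956). Sohlh1 and Crabp1 shared all 3, Gng13 (0.949 and 0.925), Tex19.1 (0.932 and 0.911) and Trim71 (0.926 and 0.903). Lin28a was nearest to Asb18 (0.943), 2810459M11Rik and Hnf4aos, Stra8 to Melk (0.939), Haus8 and Bc1, and Ccnd2 to Ski (0.933), Rarg (0.912) and Cyba. Dmrt1 was nearest to Zbtb43 (0.902), Hdac6 and Gng13, Upp1 to Iah1 (0.873), Smagp and Rps2, Sohlh2 to Gm15286 (0.827), Gm13075 and Chtf18, and Kit to Bnc2 (0.803), Sars2 and Rn7sk. Among the members themselves the likeness was highest for Crabp1 and Stra8 (0.899) and lowest for Ccnd2 and Sohlh2 (0.192).

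**Figure D4:**
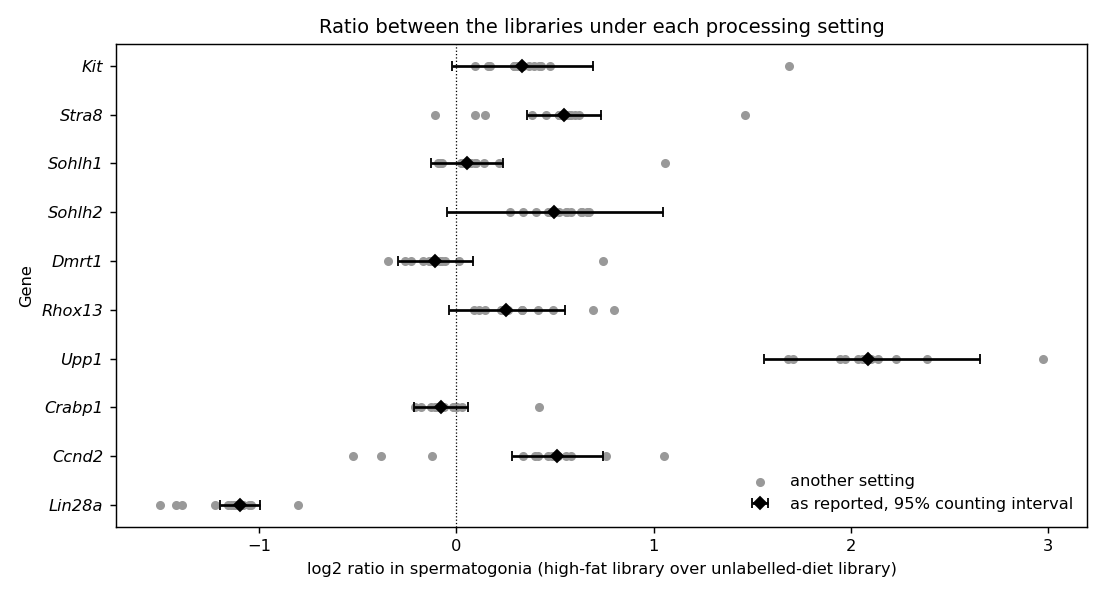
Log2 ratio of each member in spermatogonia, high-fat library over the unlabelled-diet library, as reported (diamond with its 95% counting interval) and under 16 other settings (grey points). Upp1 stays above 0 and Lin28a below 0 throughout, while the Ccnd2 and Stra8 points lie on both sides of 0.

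With both libraries summed, the genes that make, clear and sense retinoic acid were highest in several classes, most of them outside the spermatogonia. Of the 9 genes of retinoic acid synthesis and storage, Aldh1a1, a retinaldehyde dehydrogenase, was highest in Leydig cells, at 528 CPM in 76 cells of the high-fat library and 1998 CPM in 27 cells of the unlabelled-diet library, a ratio of 0.264 (0.201 to 0.346), where 1 cell held 15.1% and 30.5% of the counts. In Sertoli cells it stood at 130 and 141 CPM (ratio 0.915, 0.778 to 1.08). Aldh1a2, the enzyme of the same family known in germ cells of the mouse, was named after its values were seen, since its class of highest level held only 7 counts. It had 109 CPM in late spermatocytes of the high-fat library and 178 CPM in those of the unlabelled-diet library. Its level was also lower in the high-fat library in spermatogonia, with intervals that cover counting error only, at 42.3 and 67.2 CPM (ratio 0.629, 0.5001 to 0.789), in early spermatocytes at 78.7 and 144 CPM (0.547, 0.418 to 0.717), in late spermatocytes (0.609, 0.595 to 0.623), in round spermatids at 47.2 and 98.7 CPM (0.479, 0.457 to 0.501), in Sertoli cells at 64.9 and 139 CPM (0.468, 0.385 to 0.568) and in interstitial stroma at 60.2 and 115 CPM (0.525, 0.343 to 0.793). In undifferentiated sub-cluster 2, on 47 counts, the interval of the ratio held 1 (1.20, 0.64 to 2.32). The part of free RNA in the levels outside spermatocytes was not tested. For late spermatocytes and round spermatids, a different mix of stages in each library cannot be told apart from a difference in level.

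In spermatogonia, 2 of these 9 genes, Lrat and Aldh1a3, were past 2-fold lower in the high-fat library, beside 5.97% of genes. None was past 2-fold higher, beside 8.19% of genes, and the list's median log2 ratio was -0.57. Lrat, which esterifies retinol for storage, had 4.86 and 10.1 CPM, a ratio of 0.480 (0.241 to 0.923). Aldh1a3, a further retinaldehyde dehydrogenase, had 8 and 37 counts, a ratio of 0.175 (0.0704 to 0.382), and 1 cell held 21.6% of the counts of the unlabelled-diet library. In Sertoli cells 2 of the 9 genes, Lrat and Aldh1a2, were past 2-fold lower, beside 4.55% of genes, with a list median of -0.13. Rdh11, a retinol dehydrogenase, was highest in late spermatocytes, at 256 and 212 CPM, and Lrat in round spermatids, at 13.9 and 24.1 CPM. Unnamed cluster 9 had the highest level of Stra6, the retinol uptake receptor, at 27.2 and 44.4 CPM, and of Rdh10, a retinol dehydrogenase, at 31.5 and 19.8 CPM. Dhrs3, which turns retinaldehyde back into retinol, was highest in unnamed cluster 21, at 31.1 and 29.5 CPM, and Aldh1a3 in stroma, at 17.4 and 32.5 CPM.

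Of the 4 genes of binding and breakdown 3 were in the files, Crabp2, Cyp26a1 and Cyp26b1. Cyp26b1, which clears retinoic acid, was highest in interstitial stroma, at 741 and 407 CPM, a ratio of 1.82 (1.55 to 2.14). In spermatogonia Cyp26a1 had 12 and 4 counts and Crabp2, a relative of Crabp1, 4 and 2, too few to compare.

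Among the receptors, Rxra, Rxrb and Rarg were highest in undifferentiated sub-cluster 2 with both libraries summed. In spermatogonia as a whole the level of Rxrb was 56.9 and 45.4 CPM, that of Rxra 42.6 and 45.1 CPM and that of Rara 26.8 and 18.8 CPM, each with a ratio whose interval holds 1. Rarg, the receptor known in undifferentiated spermatogonia of the mouse, stood in sub-cluster 2 at 40.7 and 54.8 CPM (ratio 0.743, 0.399 to 1.39), and Rara was highest in Sertoli cells, at 46.9 and 32.0 CPM (ratio 1.47, 1.07 to 2.03). Past 2-fold higher in spermatogonia of the high-fat library were 2 of the 6 receptor genes, beside 8.19% of genes: Rarb and Rxrg, each on 13 counts against 2, a ratio of 5.26 (1.19 to 48.0). They were named after their values were seen, and 46.2% of the Rxrg counts of the high-fat library came from 1 cell.

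Of the meiotic entry genes, Meioc, Ythdc2 and Gm4969 were highest in early spermatocytes and Rec8, a cohesin subunit of meiotic chromosomes, in round spermatids. Meioc had 184 CPM in early spermatocytes of the high-fat library and 134 CPM in those of the unlabelled-diet library (ratio 1.38, 1.10 to 1.74), Ythdc2 75.9 and 78.2 CPM (0.971, 0.704 to 1.35) and Gm4969, known as the Stra8 partner Meiosin, 44.96 and 44.1 CPM (1.02, 0.665 to 1.59). None of the 4 genes of this list was past 2-fold in spermatogonia, beside 14.2% of genes either way. In early spermatocytes none was past 2-fold higher, beside 7.3% of genes. Of the 10 other regulators, 9 had at least 10 counts in spermatogonia and 0 were past 2-fold there, beside the same 14.2%. Among so few genes, 0 is not far from these shares. In sub-cluster 2, Sox3 had 120 and 115 CPM, Foxo1 171 and 154 CPM, and Rhox10 72.9 and 84.7 CPM, intervals of the ratio that hold 1, while Neurog3, a gene of committed progenitors, had 10 and 19 counts (ratio 0.358, 0.149 to 0.810). Dmrtb1, a relative of Dmrt1, was highest in late spermatocytes, at 2107 and 1941 CPM, and Taf4b (115 and 119 CPM) and Lin28b, the paralog of Lin28a (66.7 and 71.9 CPM), were highest in early spermatocytes. The other D-type cyclins were highest in unnamed clusters, Ccnd1 in cluster 21 at 202 and 185 CPM and Ccnd3 in cluster 9 at 160 and 88.9 CPM. Kitl, the ligand of Kit, was highest in cluster 21, at 49.7 and 50.9 CPM, had 1 and 3 counts in spermatogonia, and stood in Sertoli cells at 21.6 CPM in the high-fat library and 10.3 CPM in the unlabelled-diet library (ratio 2.101, 1.24 to 3.73).

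**Figure D5:**
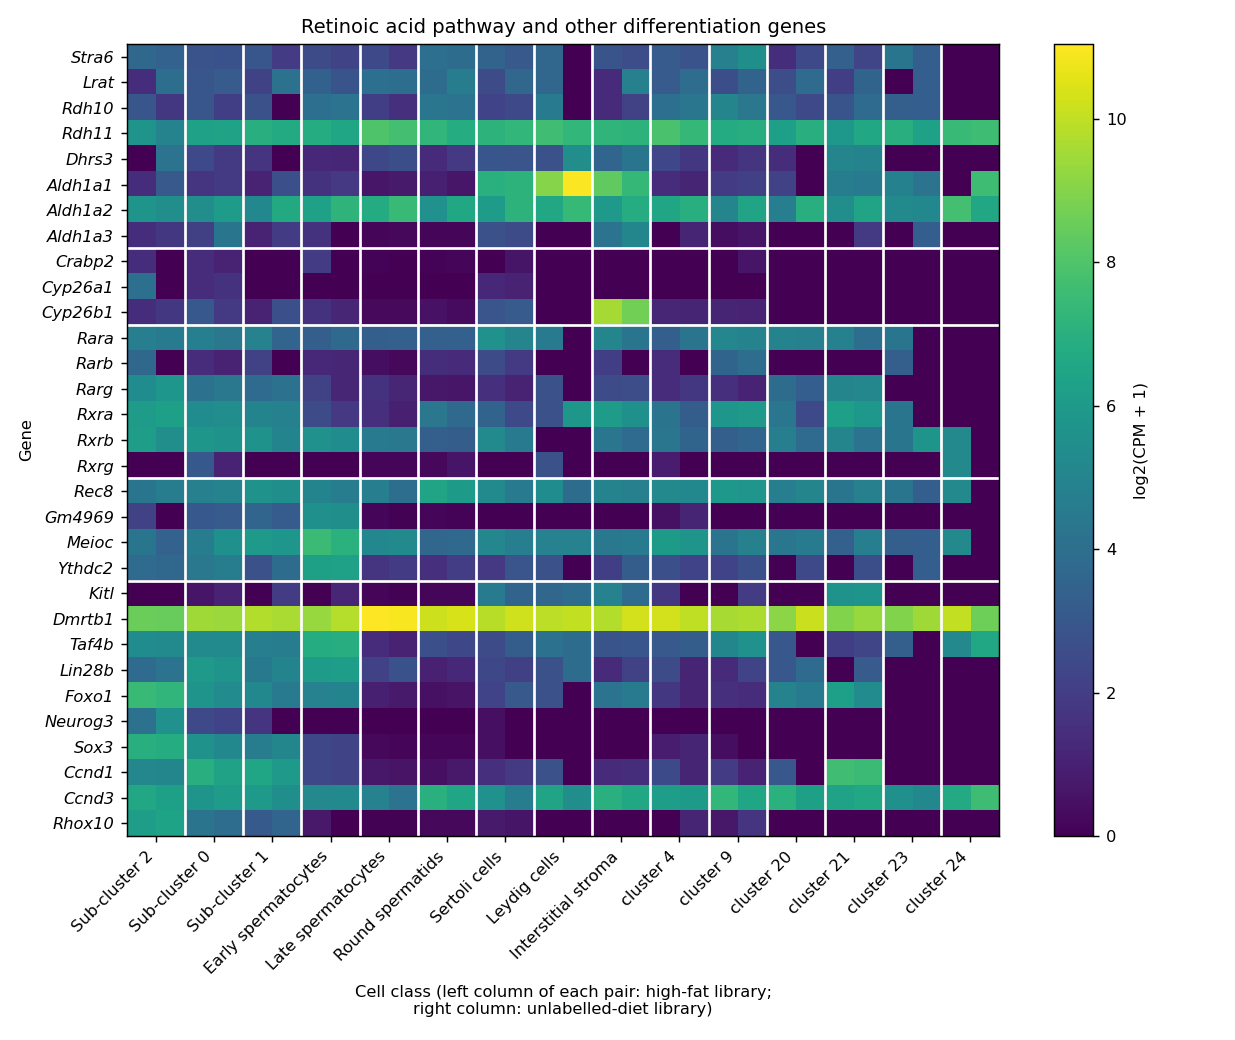
Reported genes of retinoic acid synthesis and storage, binding and breakdown, receptors, meiotic entry and other regulators (blocks split by white lines, in that order) as log2(CPM + 1), with the high-fat library left of the unlabelled-diet library in each class. Aldh1a1 is brightest in Leydig cells and Cyp26b1 in interstitial stroma, while Sox3, Foxo1 and Rhox10 are brightest in sub-cluster 2.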

How the data were processed

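Testis cell suspensions, digested with collagenase and DNase, gave 1 droplet library per group. The deposited counts are whole numbers of UMIs per gene and cell, written by PISA 1.0 per the file headers, and the submitters' processing notes name Cell Ranger 2.1.1. Which aligner, genome build and annotation made the counts is not stated in the labels or headers. The deposited cells start at 1025 UMIs in the high-fat library and 1000 in the unlabelled-diet library.

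Cells under 500 UMIs or 250 genes, or over 20% mitochondrial UMIs, were left out (3 and 2 cells), and Scrublet called 462 (3.65%) and 517 (3.75%) doublets, which were removed, leaving 12196 and 13286 cells. Both libraries were clustered together with scanpy 1.11.5 and leidenalg 0.10.2 (Python 3.11.15) on 2000 variable genes, 50 components, 20 neighbours and resolution 1, without the 42 members and listed pathway genes found in the files; spermatogonia were clustered again on 1000 genes at resolution 0.5. Classes were named from fixed markers among the top 10 genes of each cluster, with the 42 genes left out of that ranking, and the scoring rules were set after the clusters were seen. UMIs were summed per class and library and scaled to CPM. Levels have exact Poisson, ratios exact conditional binomial, shares exact Clopper-Pearson and the difference of shares Newcombe 95% intervals, all for counting error only. Ratios need 10 counts over both libraries, and a count of 0 is taken to allow up to 3 counts. The scripts for the ratios were tested on simulated Poisson counts with known folds. These leave out the clumping of UMIs in single cells, so the coverage of the intervals for such counts was not tested. Promoters came from RefSeq, and overlapping genes from GENCODE M21, in which 39109 of 39232 gene IDs were matched without version.

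The members and lists were chosen with earlier results of these data known. Named were all members, each list gene with at least 20 counts in its class of highest level, and the 3 genes most like each member; 1 list gene is counted in its list but not reported here. The alternatives changed doublets, depth, clustering, choice and weight of cells, free RNA, single cells, scaling and the count minimum.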

Additional observations from a re-analysis of the deposited data

How the results depend on the processing

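Over 16 other settings the Upp1 and Lin28a differences in spermatogonia kept their direction and the side of 1 of their intervals. Stra8 was higher in the high-fat library in 15 of 16 settings, with an interval above 0 in 13. Its log2 ratio was 0.096 with cells weighted equally, 0.146 with cells thinned to 1000 UMIs and -0.11 without cells of 10000 UMIs or more. The intervals of these ratios held 0. Ccnd2 was higher in 13 of 16 and had log2 ratios of -0.38 with cells weighted equally, -0.52 with cells thinned to 1000 UMIs and -0.12 without cells of 10000 UMIs or more. The median log2 ratio of the members was 0.926 with cells picked by marker counts, 0.0021 with cells weighted equally and -0.019 without cells of 10000 UMIs or more. The number of members past 2-fold was 6 of 10 with cells picked by marker counts, beside 18.2% of all genes. It was 1 of 10 with the sub-clusters of both libraries weighted to 1 mix, beside 14.6% of all genes. The difference in share was -0.216 points with cells picked by marker counts, which are not limited to spermatogonia. The settings on deep cells, sub-clusters and early spermatocytes were chosen after seeing the data, and the cause of these changes was not tested. With a minimum of 2000 UMIs, and in the unlabelled-diet library clustered on its own, no spermatogonial marker was among the top 10 genes, and the cluster with the highest marker score was used. No paired analysis was possible because each group has 1 library and no result comes from a test. With cells picked by marker counts, Dmrt1 and Crabp1 were higher in the high-fat library, with log2 ratios of 0.75 and 0.42, and Kit and Sohlh1 stood at 1.69 and 1.06. Depth limits the genes with few UMIs in spermatogonia, among them Rarb, Rxrg, Cyp26a1, Crabp2 and Kitl.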
